A study of Rattus norvegicus with 48 samples.

Results

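The coagulation and complement factors that the liver makes for the blood were followed in rat livers after ischemia and reperfusion. A list of 33 genes (17 of coagulation and fibrinolysis, 16 of complement) was matched by gene symbol to the arrays, and where a gene had several probe sets the one of highest average over the 48 arrays would stand for it. A probe set carrying that gene's symbol alone was found for 30 of the 33, 1 probe set each, out of 14506 genes measured this way: 16 of coagulation and 14 of complement. F9 and C5 had no named probe set here, and the probe set of Cfb also carried C2, so these 3 genes have no value. Genes were matched by symbol, and with 1 probe set each no measured value decided which probe set was used. The list itself was chosen with earlier results of these data known.

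The animals were male Wistar rats of 300–350 g under Hypnorm and midazolam anaesthesia, and each gave 1 biopsy of the right liver lobe and 1 array. Sham rats (8) had the abdomen opened and no ischemia. In the IRI group (10 rats) the whole liver was ischemic for 30 min and reperfused for 30 min. IPC rats (10), for ischemic preconditioning, were first given a short ischemia of 10 min and then 10 min of flow. IPO rats (10), for postconditioning, had the same 30 min of ischemia, after which flow was restored in 3 cycles, each with 30 sec on and 30 sec off. IPC+IPO rats (10) had both. All 5 groups shared the anaesthesia and the laparotomy, and the biopsies held every cell type of the liver.

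Hepatocytes secrete most of the clotting cascade: the zymogens F2, F7, F9 and F10, whose membrane-binding Gla domains need vitamin K to form, the cofactor F5, the contact proteases F11, F12 and plasma prekallikrein (Klkb1), and the inhibitors that hold them back. They also secrete most of complement, in which the classical proteases C1r and C1s, or mannose-binding lectins with the proteases Masp1 and Masp2, lead to cleavage of C3, after which C5 to C9 assemble a pore in the target membrane. Both systems circulate as inactive precursors, and both are engaged when blood returns to ischemic tissue. The messenger RNAs were measured here, not the proteins in plasma.

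Promoters were looked up first. The relation of motif matches to the expression values was not tested, and shares were not set against promoters of other liver genes. RefSeq promoter sequences of the GRCr8 assembly, 300 bases each (250 before the start and 50 after), were matched for 26 of the 33 genes. They were searched on both strands for the motif GTTAATNAT of the hepatocyte factor HNF1 and for the motif TTGCNNAA of C/EBP factors, which do not overlap in any of these promoters. The HNF1 letters stood in 5 of the 26 (C4bpa, C5, F13b, Hgfac and Plg, 19.2%) against 0.7% of 33469 promoters; a form longer by 1 letter, searched first, stood in 4 of the 26 and 0.3% of all. The following 49 bases each show that match, on the strand of the gene, with the motif in capitals.
C4bpa (chr13:44663519-44663567, minus strand): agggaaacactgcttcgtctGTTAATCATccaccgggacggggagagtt
C5 (chr3:38759473-38759521, minus strand): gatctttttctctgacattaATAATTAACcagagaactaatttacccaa
F13b (chr13:53681557-53681605, plus strand): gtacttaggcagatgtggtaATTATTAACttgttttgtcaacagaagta
Hgfac (chr14:79938830-79938878, minus strand): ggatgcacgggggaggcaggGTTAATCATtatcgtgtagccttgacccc
Plg (chr1:50915448-50915496, minus strand): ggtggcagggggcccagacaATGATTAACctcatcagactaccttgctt
All 5 matches began between positions -85 and -33 relative to the start. The C/EBP letters stood in 9 of the 26 (C1r, C3, C4bpa, C6, C8a, C8b, F9, Klkb1 and Serpinc1, 34.6%) against 10.6% of all promoters. The letters CAAAGTCCA and CAAAGTTCA, 2 forms of an HNF4 motif, were in none of the 26 and in 0.4% and 0.3% of all promoters. Strings as rare as these 2 would seldom be met in 26 promoters, so their absence says nothing about HNF4. A match is a string of letters, not a measured binding site, and binding was not measured.

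The promoters of C8a and C8b are shown whole. These genes encode the alpha and beta chains of complement C8 and lie on opposite strands of chromosome 5, and their values parted between the groups, as described further on. The C/EBP match is in capitals in each.
C8a (chr5:124866582-124866881, minus strand): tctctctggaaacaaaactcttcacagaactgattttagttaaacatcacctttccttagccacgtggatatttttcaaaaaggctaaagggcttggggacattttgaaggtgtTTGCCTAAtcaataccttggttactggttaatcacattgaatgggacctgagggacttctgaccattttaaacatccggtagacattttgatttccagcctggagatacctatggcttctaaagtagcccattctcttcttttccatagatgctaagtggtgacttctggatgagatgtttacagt
C8b (chr5:124763864-124764163, plus strand): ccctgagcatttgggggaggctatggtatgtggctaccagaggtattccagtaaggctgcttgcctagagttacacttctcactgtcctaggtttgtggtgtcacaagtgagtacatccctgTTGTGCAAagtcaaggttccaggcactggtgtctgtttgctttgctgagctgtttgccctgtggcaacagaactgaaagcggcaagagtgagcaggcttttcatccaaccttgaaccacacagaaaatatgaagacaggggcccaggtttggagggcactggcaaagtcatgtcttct
In C8a the match began at position -136 and in C8b at position -128 from the start.

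The 48 arrays had no missing value. Hepatocyte markers were high in every group: the summed level of 10 markers, on the log2 scale, had a median between 15.52 in sham and 15.71 in IPO, with no marker below 9.25 on any array. The spread of an array, meaning the SD of its log2 values over the 14506 genes, ran from 1.5 to 1.97, with group means of 1.72 (sham), 1.77 (IRI), 1.85 (IPC), 1.86 (IPC+IPO) and 1.91 (IPO). This spread moves with nearly every result below, so counts and medians with the spread as a covariate in the fit are given with each main comparison. The 30 genes had mean log2 levels from 8.15 (F5) to 12.36 (C3), with a median of 10.42; levels of different probe sets do not rank amounts of RNA. In a biopsy of whole tissue, fewer hepatocytes and less RNA per hepatocyte cannot be told apart.

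After ischemia and reperfusion alone, none of the 30 genes passed the threshold against sham. With postconditioning, 13 genes were higher than in IRI and none lower, in both systems. From the coagulation and fibrinolysis list they were F10, Pros1, Hgfac, Serpinc1, Serpind1, Plg and Cpb2. From the complement list they were C1s, Mbl2, C3, C6, C8a and Cfi. The rises of the 13 genes were of 1.17 to 1.46-fold. Of all genes 12.4% were higher and 22.8% passed in either direction. With array spread as a covariate 0 of the 30 passed and the median difference went from 0.35 to 0.08, and without IRI rat 7 only 2 of the 30 passed. Differences were tested with limma over all 5 groups, and "passed" means a Benjamini-Hochberg adjusted p under 0.05 over the 14506 genes. Preconditioning and the combined treatment gave differences above 0 in 29 and 28 of the 30 genes against IRI, but no gene passed. Of all genes 47.1% and 46.2% lay above 0. The 30 genes largely moved together from rat to rat, so such counts are not 30 separate results. IRI is the shared comparison group of the 3 treatments, so the 3 sets of values are not independent of one another.

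**Figure D1:**
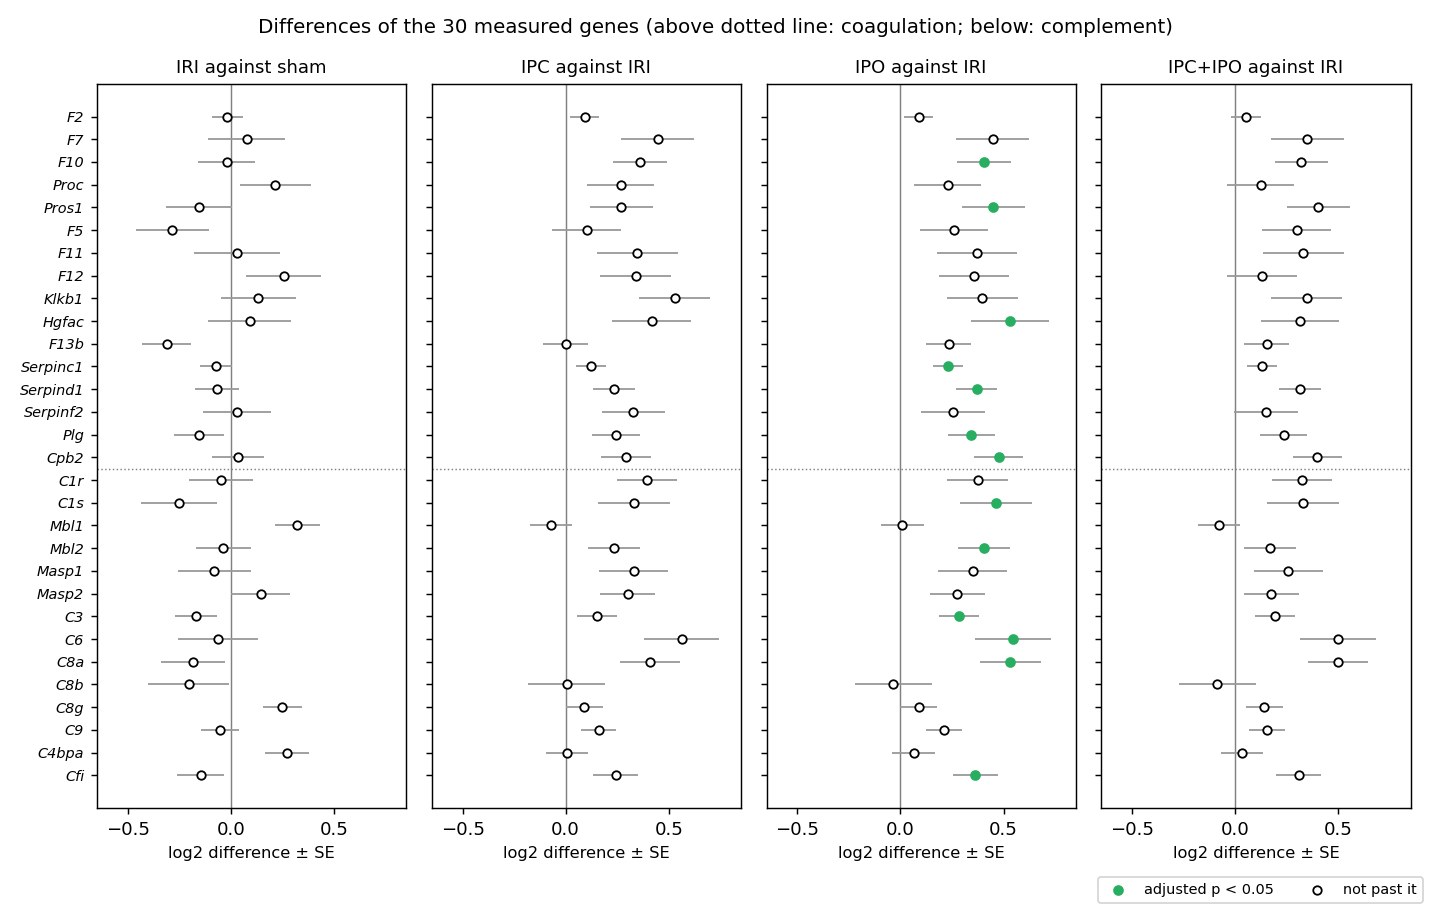
Log2 difference of each of the 30 genes in the 4 main comparisons, with the standard error from limma (whiskers); the x axis is log2 and filled points passed an adjusted p of 0.05. Only IPO against IRI has filled points, 13 of them, all to the right of 0, and C8b, Mbl1 and C4bpa stay near 0 in the 3 right panels.

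The comparison of IRI with sham asks what ischemia and 30 min of reperfusion do to these genes. None of the 30 passed with limma (0.241% of all genes did), and 4 had an unadjusted p under 0.05 (13.3% of the 30, against 11.5% of all genes, so the count is near the background): F13b below sham and Mbl1, C4bpa and C8g above it. The median difference was -0.04 over the 30 genes and 0.03 over all genes. F13b, which encodes the carrier subunit of the fibrin crosslinking factor XIII, lay between 10.31 and 10.64 in sham (median 10.43) and between 9.77 and 10.45 in IRI (median 10.22). Of the 10 IRI rats, 7 lay below every sham rat. The difference was -0.31 ± 0.12 (SE; limma adjusted p = 0.249). With the array spread as a covariate F13b was -0.37 (adjusted p = 0.0201), and after renewed quantile normalization -0.51 (adjusted p = 0.00781), and so passed in both of these fits.

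Mbl1, a mannose-binding lectin, ran from 9.31 to 10.15 in sham (median 9.57) and from 9.74 to 10.19 in IRI (median 9.94), so that all 10 IRI rats lay above the sham median. C4bpa, the alpha chain of the C4b-binding protein that restrains the classical pathway, ran from 10.72 to 11.63 in sham (median 11.11) and from 11.34 to 11.69 in IRI (median 11.46). C8g, the gamma chain of C8, ran from 10.51 to 11.43 in sham (median 10.89) and from 11.04 to 11.39 in IRI (median 11.13). For each of these 3 genes 6 of the 8 sham rats lay below every IRI rat, and the remaining sham rats lay within or above the IRI range. The differences were 0.32 ± 0.11 (SE) for Mbl1, 0.27 ± 0.11 for C4bpa and 0.25 ± 0.10 for C8g, with limma adjusted p of 0.186, 0.282 and 0.255. Without sham rat 48, 1 of the 30 genes passed. Without the 14 arrays of lowest spread, which hold 6 of the 8 sham arrays, the 3 differences were -0.12, -0.10 and -0.14.

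With the covariate, 5.89% of all genes passed against sham and 3 of the 30 did: F13b lower, C8g higher (0.19, adjusted p = 0.0479) and Cfi, the protease that inactivates C3b, lower (-0.23, adjusted p = 0.0395; -0.15 without the covariate). The median over the 30 was then -0.11, and F7, F11, Hgfac, Serpinf2 and Cpb2 turned from above to below 0.

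The comparison of IPO with IRI asks what postconditioning changes after the same ischemia. The median difference was 0.35 over the 30 and -0.04 over all genes. Above 0 lay 29 of the 30 and 45.9% of all genes. By class, 7 of 16 coagulation genes and 6 of 14 complement genes passed, with medians of 0.36 and 0.32.

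Among the vitamin K-dependent genes, F10, the protease that turns prothrombin into thrombin, ran from 9.80 to 10.98 in IRI (median 10.21) and from 10.29 to 10.92 in IPO (median 10.79). All 10 IPO rats lay above the IRI median, but the ranges overlapped, with 1 IRI rat above every IPO rat. The rise was 0.40 ± 0.13 (SE; limma adjusted p = 0.0275). Pros1, which encodes protein S, the cofactor of activated protein C, ran from 9.02 to 10.48 in IRI (median 9.76) and from 9.86 to 10.44 in IPO (median 10.30). It rose by 0.45 ± 0.15 (limma adjusted p = 0.0331), with 6 IRI rats below every IPO rat. F7, which starts the cascade with tissue factor, differed by 0.45 ± 0.18 and missed the threshold (adjusted p = 0.0565). Proc, the protein C zymogen, stood at 0.23 ± 0.16 and F2, prothrombin, at 0.09 ± 0.07, neither past it. The cofactor F5 stood at 0.26 ± 0.17.

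None of the 3 contact genes passed against IRI. Klkb1, plasma prekallikrein, had the smallest p of them: it ran from 8.90 to 10.57 in IRI (median 9.65) and from 9.60 to 10.39 in IPO (median 10.12), a difference of 0.40 ± 0.17 (limma adjusted p = 0.0747). Its highest group median was in IPC, with values from 9.39 to 10.75 (median 10.20). F11 stood at 0.37 ± 0.20 and F12 at 0.36 ± 0.17. Hgfac, a relative of factor XII that activates hepatocyte growth factor, ran from 7.63 to 9.07 in IRI (median 8.66) and from 8.33 to 9.24 in IPO (median 9.13). It rose by 0.53 ± 0.19 (adjusted p = 0.041), and 6 IPO rats lay above every IRI rat. F13b, which was low in IRI, was 0.23 ± 0.11 higher in IPO and did not pass (adjusted p = 0.0987).

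Both inhibitor genes of thrombin rose. Serpinc1, antithrombin, ran from 11.34 to 11.88 in IRI (median 11.62) and from 11.69 to 11.96 in IPO (median 11.89), with 6 IPO rats above every IRI rat and 7 IRI rats below every IPO rat. The rise was small, 0.23 ± 0.07 (SE), and passed (limma adjusted p = 0.027). Serpind1, heparin cofactor II, ran from 10.01 to 10.84 in IRI (median 10.33) and from 10.40 to 10.95 in IPO (median 10.82). It rose by 0.37 ± 0.10 (adjusted p = 0.0176), and all 10 IPO rats lay above the IRI median.

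In fibrinolysis, Cpb2 had the smallest p of the 30 genes. Cpb2 encodes the carboxypeptidase, also called TAFI, that trims fibrin so that plasminogen binds it less. It ran from 10.02 to 11.07 in IRI (median 10.34) and from 10.45 to 11.04 in IPO (median 10.93). Apart from 1 IRI rat above every IPO rat, the IRI values sat low: 7 of the 10 lay below every IPO rat. The rise was 0.48 ± 0.12 (SE), or 1.39-fold (limma adjusted p = 0.0137). Plg, plasminogen, ran from 10.99 to 11.93 in IRI (median 11.33) and from 11.31 to 11.88 in IPO (median 11.80), and rose by 0.34 ± 0.12 (adjusted p = 0.0325). Serpinf2, the plasmin inhibitor alpha-2-antiplasmin, stood at 0.26 ± 0.15 and did not pass.

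**Figure D2:**
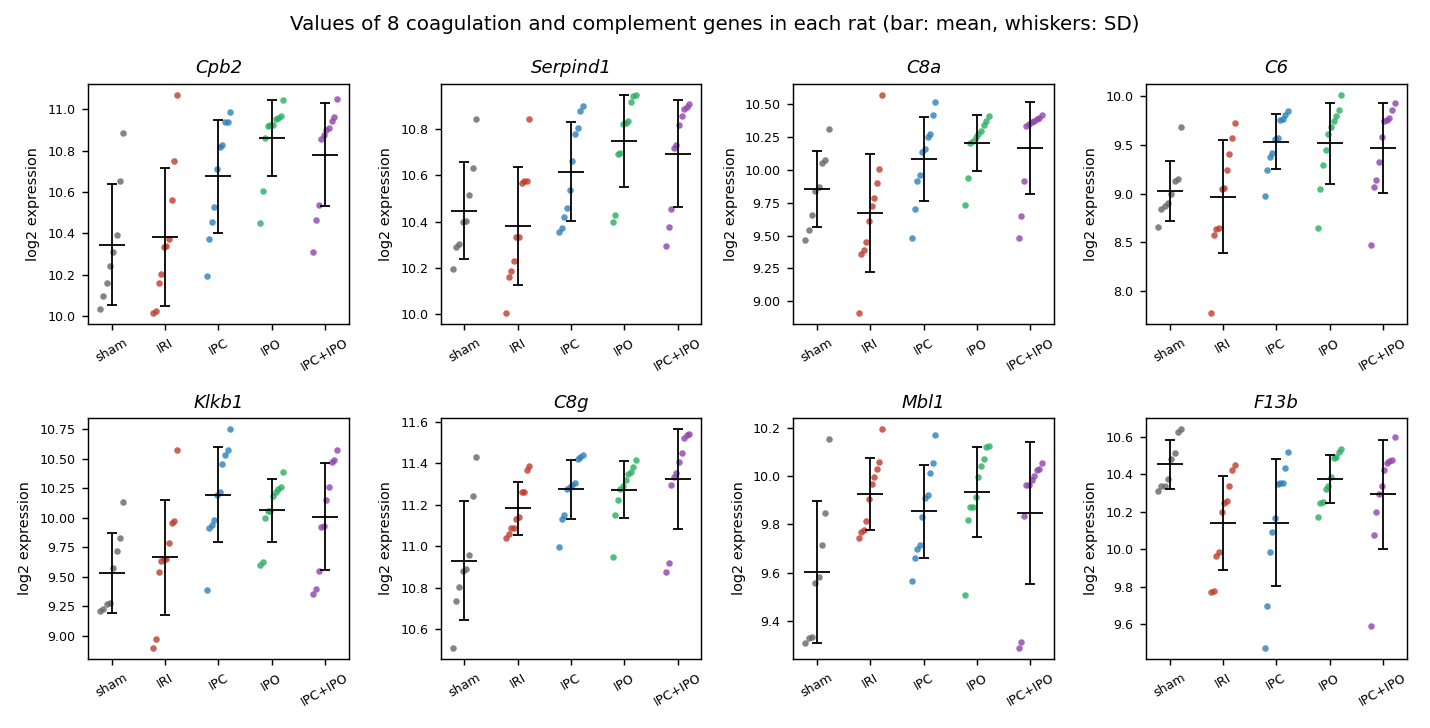
Log2 expression of 8 of the genes in each rat by group; each point is 1 rat, the bar is the group mean and the whiskers are the SD. Cpb2, Serpind1, C8a and C6 sit higher in IPO than in IRI with overlapping ranges, Klkb1 has its highest mean in IPC, 6 of the 8 sham rats lie below every IRI rat for C8g and Mbl1, and F13b is lower in 7 of the 10 IRI rats than in any sham rat.

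At the entry to complement, C1s, the classical protease that cuts C4 and C2, ran from 8.55 to 10.39 in IRI (median 9.84) and from 9.57 to 10.42 in IPO (median 10.17). It rose by 0.47 ± 0.18 (SE), just inside the threshold (limma adjusted p = 0.0484). Its partner C1r stood at 0.37 ± 0.15, just outside it (adjusted p = 0.0547). The lectin Mbl2 ran from 9.30 to 10.50 in IRI (median 10.08) and from 10.10 to 10.62 in IPO (median 10.44) and rose by 0.41 ± 0.13 (adjusted p = 0.0249), with all 10 IPO rats above the IRI median. The other lectin, Mbl1, stood at 0.01 ± 0.10, and the lectin proteases Masp1 and Masp2 at 0.35 ± 0.17 and 0.27 ± 0.13, none past the threshold.

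C3, the component at which the pathways meet, ran from 11.82 to 12.65 in IRI (median 12.17) and from 12.22 to 12.58 in IPO (median 12.54). All 10 IPO rats lay above the IRI median, and C3 rose by 0.28 ± 0.10 (SE; limma adjusted p = 0.0346). Of the regulators, Cfi ran from 10.45 to 11.22 in IRI (median 10.75) and from 10.83 to 11.28 in IPO (median 11.17). Cfi rose by 0.36 ± 0.11 (adjusted p = 0.0221), and 7 IRI rats lay below every IPO rat. C4bpa stood at 0.06 ± 0.10.

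Of the 5 measured genes of the membrane attack complex, C6 and C8a rose. C6 ran from 7.78 to 9.72 in IRI (median 9.05) and from 8.65 to 10.01 in IPO (median 9.65), a rise of 0.55 ± 0.18 (SE), or 1.46-fold (limma adjusted p = 0.0329); 4 IPO rats lay above every IRI rat. C8a ran from 8.91 to 10.57 in IRI (median 9.67) and from 9.73 to 10.41 in IPO (median 10.26), a rise of 0.53 ± 0.15, or 1.45-fold (adjusted p = 0.0175). All 10 IPO rats lay above the IRI median of C8a, and 1 IRI rat lay above every IPO rat. C9, which forms the wall of the pore, stood at 0.21 ± 0.09 (adjusted p = 0.0643). C8g stood at 0.09 ± 0.09 and C8b at -0.04 ± 0.19, and only C8b among the 30 genes was below 0.

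The calls of IPO against IRI were lost with the covariate for array spread: 0 of the 30 passed with limma (0.0138% of all genes), with 22 above 0 in place of 29. The 7 that turned below 0 were F2, Proc, F11, Mbl1, Masp2, C8g and C4bpa. The count was 3 after renewed quantile normalization (Serpinc1, Cpb2 and Cfi) and between 2 and 19 when single rats were left out: 2 without IRI rat 7, 5 without IRI rat 8, 6 without IRI rat 9, 7 or 8 without IPO rats 22, 23, 26, 27, 28 or 29, and 19 without IRI rat 1. Cpb2 and Serpind1 passed in all 48 of these fits. Shares of all genes after quantile normalization or without single rats are not given, here or below, so those counts cannot be set against all genes.

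Ratios among the 3 chains of C8 were compared across the groups after their values had been seen. The alpha and gamma chains are linked to each other and join the beta chain in the circulating protein, which the liver makes from separate genes. C8b had group medians from 10.24 in IPC to 10.49 in sham, with ranges that overlapped throughout. The difference of C8a and C8b within a rat (log2 of the ratio of the probe sets, whose own zero has no meaning) ran from -0.90 to -0.05 in sham (median -0.66) and from -1.02 to -0.11 in IRI (median -0.62). It ran from -0.61 to 0.50 in IPC (median -0.16), from -0.77 to 0.68 in IPO (median 0.03) and from -0.42 to 0.86 in IPC+IPO (median 0.05). Above every IRI rat lay 4 IPC rats, 7 IPO rats and 6 IPC+IPO rats, of 10 each.

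Against IRI the ratio was higher by 0.57 ± 0.17 (SE) in IPO (two-sided permutation p = 0.00394, adjusted over the 12 ratio tests 0.0236). It was higher by 0.58 ± 0.16 in IPC+IPO (permutation p = 0.00184, adjusted 0.0221) and by 0.41 ± 0.14 in IPC (permutation p = 0.0104, adjusted 0.0311). IRI and sham differed by 0.02 ± 0.14 (exact permutation p = 0.873). Within groups the ratio hardly followed array spread over the 48 arrays (r = 0.07), and with its slope on spread removed the 3 differences against IRI were 0.54 in IPO, 0.56 in IPC+IPO and 0.39 in IPC. The ratio of C8a to C8g was higher than in IRI by 0.45 ± 0.14 in IPO (permutation p = 0.0059, adjusted 0.0236) and by 0.36 ± 0.14 in IPC+IPO (permutation p = 0.0191, adjusted 0.0457), and by 0.32 ± 0.16 in IPC, which passed only without IRI rat 1 (with all rats permutation p = 0.0675, adjusted 0.104). For this ratio IRI against sham stood at -0.43 ± 0.18 (exact permutation p = 0.0292, adjusted 0.0584; past the threshold only without IRI rat 1 or sham rat 48), and its mean was -1.51 in IRI against -1.08 (sham), -1.19 (IPC), -1.07 (IPO) and -1.16 (IPC+IPO). The ratio of C8g to C8b stood at 0.46 ± 0.24 in IRI against sham (exact permutation p = 0.0693, adjusted 0.104), and stood at 0.09 to 0.23 in the 3 treatments against IRI (smallest permutation p = 0.317, adjusted 0.422). The C8 ratios were chosen for a test after their values were seen. The adjustment over the 12 ratio tests does not cover that choice, so these p values cannot be read as independent evidence. The 3 treatments also share the IRI rats. The C8a to C8b difference in IPC did not pass without IRI rat 3, 4 or 5 (largest adjusted permutation p = 0.0612). The C8a to C8g difference in IPC+IPO passed in 32 of 48 repeats that each left out 1 rat, and did not without any one of IRI rats 3 to 10 or IPC+IPO rats 31, 32, 33, 35, 36, 37, 39 and 40 (largest adjusted permutation p = 0.091).

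**Figure D3:**
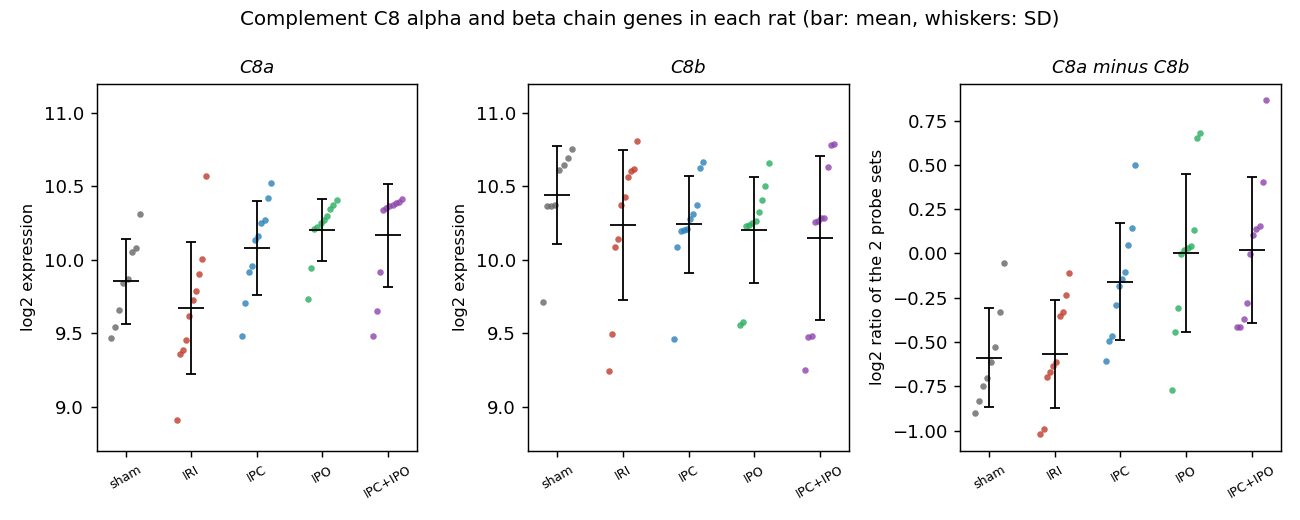
Log2 expression of C8a (left) and C8b (middle) and the log2 ratio of their probe sets in the same rat (right), by group; points are rats, bars are means and whiskers are SDs. The ratio has medians of -0.66 and -0.62 in sham and IRI, -0.16 in IPC, and 0.03 and 0.05 in IPO and IPC+IPO, and 7 of the 10 IPO rats lie above every IRI rat.

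The comparison of IPC with IRI asks what preconditioning does. With limma none of the 30 genes passed (0.0276% of all genes did) and 13 had an unadjusted p under 0.05 (19.3% of all genes did). Above 0 lay 29 of the 30 (47.1% of all genes), with a median of 0.27 against -0.015 over all genes. The widest differences were those of C6 (0.56 ± 0.18, SE; adjusted p = 0.162), Klkb1 (0.53 ± 0.17, adjusted p = 0.162), F7 (0.45 ± 0.18) and Hgfac (0.42 ± 0.19). C8a stood at 0.41 ± 0.15, C1r at 0.39 ± 0.15 and F10 at 0.36 ± 0.13. F13b, C8b and C4bpa stood between 0.00 and 0.01 and Mbl1 at -0.07. With the covariate the median was 0.12, 24 lay above 0 and none of the 30 passed (0% of all genes). Without IRI rat 1 the count was 2.

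In IPC+IPO against IRI none of the 30 passed with limma (0% of all genes did), 9 had an unadjusted p under 0.05 (21.5% of all genes did) and the median was 0.25 against -0.02 over all genes. With the covariate the median was 0.075, 23 lay above 0 in place of 28, and none of the 30 passed (0.062% of all genes). Cpb2 (0.40 ± 0.12, SE) and C8a (0.50 ± 0.15) came nearest, with adjusted p of 0.0993 and 0.095, and C6 stood at 0.50 ± 0.18. Rat 38 of this group had the lowest spread of all 48 arrays and was the lowest of its group for 8 of the genes by a wide gap. Without it 9 of the 30 passed, without IRI rat 1 6, and without IPC+IPO rat 37 2.

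The 3 treatments were also set against each other and for an interaction. No gene among the 30 passed in IPO against IPC, in IPC+IPO against IPC or in IPC+IPO against IPO (0% of all genes in each). For the interaction of IPC and IPO, which is the IPC+IPO difference less the sum of the single ones, 0 of the 30 passed with limma (0% of all genes) and 14 had an unadjusted p under 0.05 (20.3% of all genes did). All 30 interaction values were below 0, with a median of -0.37 against 0.03 over all genes, of which 53% lay above 0. The same IRI rats enter every one of these values, so they are not 30 separate results. With the covariate the median was -0.11, 7 of the 30 lay above 0 and none passed (0% of all genes).

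Against sham, 4 of the 30 genes were higher in IPC (5.6% of all genes were, and 6.58% passed in either direction): F12, Klkb1, Masp2 and C8g. In IPO 12 were higher (15.4% of all genes, 23.2% in either direction): F7, F10, F12, Klkb1, Hgfac, Serpind1, Cpb2, Mbl1, Mbl2, Masp2, C8g and C4bpa. In IPC+IPO, Cpb2 and C8g were higher (3.05% of all genes, 3.62% in either direction). Median Klkb1 was 9.42 (sham), 9.65 (IRI), 10.20 (IPC), 10.12 (IPO) and 10.04 (IPC+IPO), and it was 0.66 ± 0.18 (SE) above sham in IPC (limma adjusted p = 0.0243). Median C8g was 10.89 (sham), 11.13 (IRI), 11.29 (IPC), 11.31 (IPO) and 11.38 (IPC+IPO), and it was 0.39 ± 0.10 above sham in IPC+IPO (adjusted p = 0.022). Over the 5 groups 8 of the 30 differed by limma's F test (14.4% of all genes): F10, F12, Klkb1, Serpind1, Cpb2, C6, C8a and C8g. With the covariate none of the 30 passed the F test (1.34% of all genes), IPO against sham (0%) or IPC+IPO against sham (0.234%), and in IPC against sham (1.9%) F13b alone did (-0.47, adjusted p = 0.00978). Leaving out single rats gave 0 to 10 genes in IPC (0 without sham rat 41, 42, 45 or 46 and 10 without sham rat 43), 4 to 16 in IPO (4 without sham rat 41 or 45 and 16 without sham rat 43) and 0 to 12 in IPC+IPO (12 without rat 38 of that group).

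All 30 genes tracked the spread of the array. Within groups the correlation of a gene with spread over the 48 arrays lay between 0.40 (Serpinf2) and 0.85 (Pros1 and C4bpa) with a median of 0.67, while 50.3% of all genes had a correlation above 0. These are descriptions, since the genes are themselves part of the spread and share each array's RNA and hybridization. An increase of 0.1 in spread went with a median increase of 0.18 in the 30 genes and of 0.003 in all genes. The 30 genes had means of 8.15 to 12.36, above the array medians over genes of 5.78 to 5.92. Genes above the centre of an array tend to rise when its values spread wider. The 30 were not set against equally bright genes, so this relation is not shown to be particular to them. The steepest slopes per 0.1 of spread were those of Hgfac (0.31), F11 (0.28) and Pros1 (0.26), and the flattest those of F2 (0.08), Serpinc1 (0.10) and C9 (0.10). Mean spread was 0.14 higher in IPO than in IRI. What sets the spread was not tested, and the part of it in the treatment differences cannot be told from these values.

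**Figure D4:**
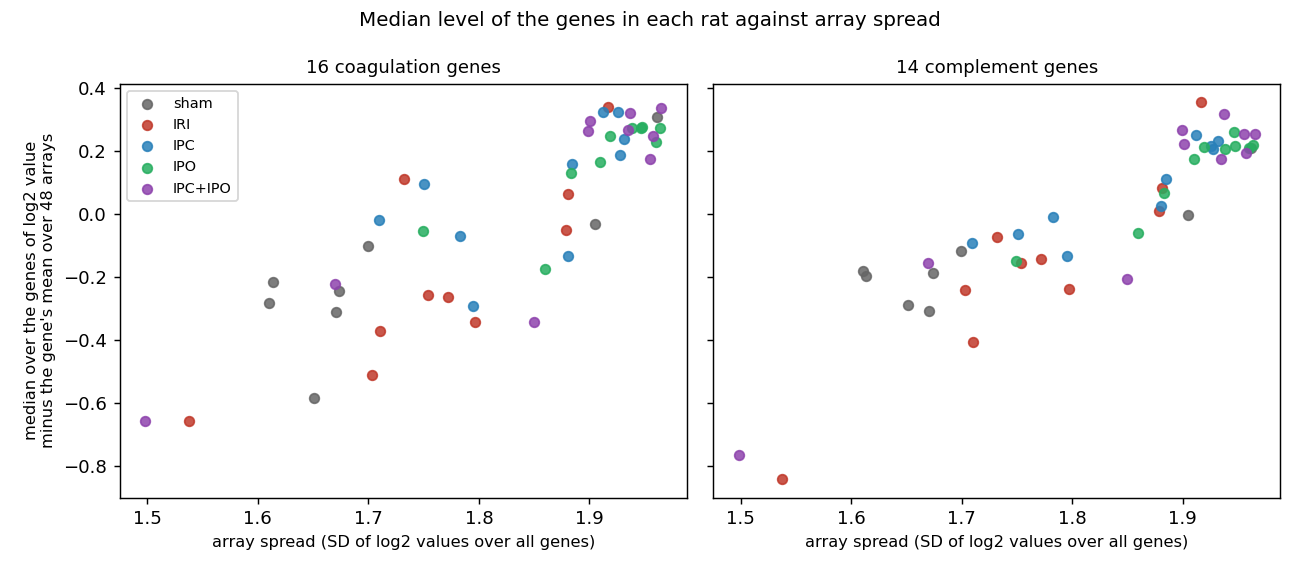
Median over the 16 coagulation genes (left) and the 14 complement genes (right) of the log2 value less the gene's mean over all arrays, against the spread of the array; each point is 1 rat, coloured by group. Both medians climb with spread, and the IPO rats crowd at the right end while most sham rats and the lowest IRI rat lie to the left.

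**Figure D5:**
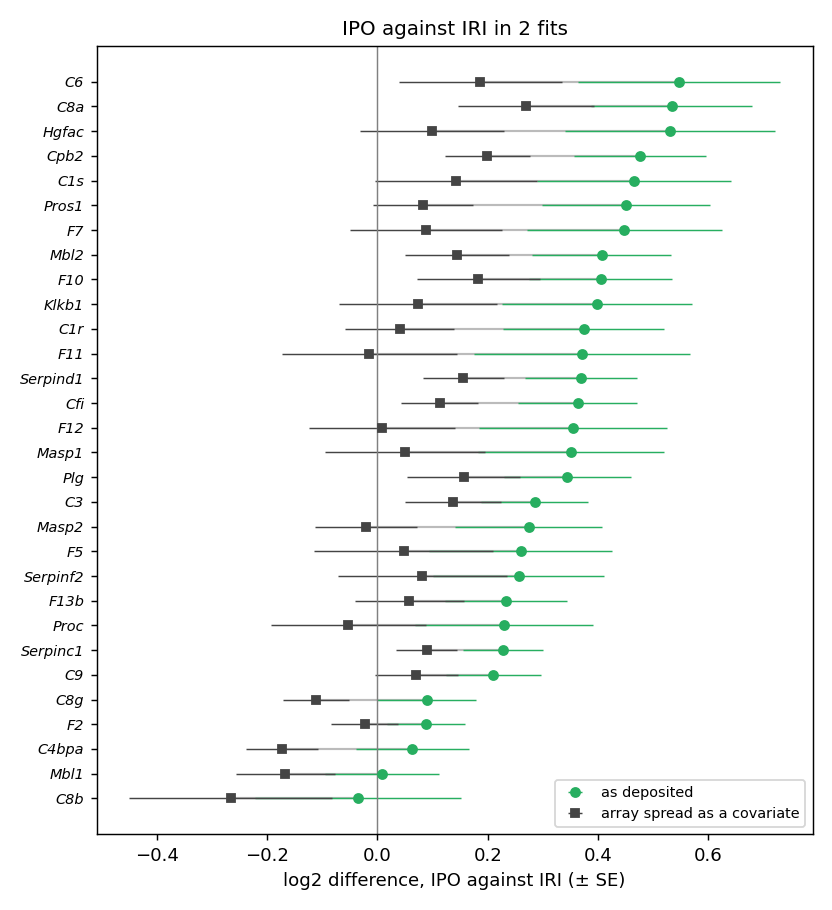
Log2 difference of IPO against IRI for each gene, as deposited (circles) and with array spread as a covariate (squares), with standard errors. Each square lies to the left of its circle, the median falls from 0.35 to 0.08, and C8a has the largest value with the covariate, 0.27.

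The genes also differed in which of their fellows they resembled. Of the 435 pairs, 432 correlated above 0 within groups over the 48 arrays, and 325 did once each gene's slope on spread was removed. After removal the median correlation was 0.34 among pairs of coagulation genes, 0.18 among pairs of complement genes and 0.21 between the classes. The closest pairs were Proc with F12 and Proc with Serpinf2 (0.90 each), then F7 and Proc with Masp2, Plg with C8a, F5 with Masp1 and C3 with C8a (0.85 each), so that close pairs crossed the classes. IRI rat 10 and IPC rats 11 and 12 lay above every other rat for Proc (11.289, 11.356 and 11.265). The same held for Serpinf2 (11.637, 11.691 and 11.648). The weight of these rats in the closest pairs was not tested. Plasminogen was as close to C1r (0.84) as C1r was to C8a (0.84). F11 was most like its chromosome 16 neighbour Klkb1 (0.79), F13b like Cfi (0.74), and Serpind1 was as close to Serpinc1 as to Cpb2 (0.68 each). C4bpa and C8b were the least bound to the others, with closest values of 0.39 and 0.47. Likeness here is over rats of all groups after group means were removed, and arrays are shared by both genes of a pair.

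Other genes of both systems were taken from lists chosen by function. Of 33 other coagulation genes, 9 rose and 3 fell in IPO against IRI, with a median of 0.14 (-0.01 with the covariate); of all genes 12.4% rose and 10.4% fell. The fibrinogen chains Fga and Fgb rose by 0.39 ± 0.10 (SE) and 0.29 ± 0.07 (limma adjusted p = 0.0139 and 0.0136), and Lman1, the cargo receptor that carries factors V and VIII out of the endoplasmic reticulum, by 0.81 ± 0.21 (adjusted p = 0.0139). Plat, tissue plasminogen activator, was the only one of them past the threshold in IPC against IRI: it ran from 5.19 to 6.46 in IRI (median 6.01) and from 6.21 to 6.94 in IPC (median 6.41), a rise of 0.56 ± 0.11 (adjusted p = 0.0472). In IPO Plat rose by 0.38 ± 0.11 (adjusted p = 0.0219). Of 27 other complement genes 4 rose and 2 fell in IPO, a share of 22.2% near the 22.8% of all genes, with a median of 0.08 (-0.06 with the covariate). Clu, the fluid-phase inhibitor clusterin, rose by 0.55 ± 0.13 (adjusted p = 0.0112), Serping1, the C1 inhibitor, by 0.58 ± 0.16 (adjusted p = 0.0162), and Vtn and Cr1l by 0.35 and 0.69. The genes that fell were the receptors Plaur, F2rl1 and F2rl3 in the first list and Cd55 and Itgam in the second. With the covariate none of these other genes passed in IPO against IRI.

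Of 21 other secreted proteins of hepatocytes 8 rose and 1 fell in IPO against IRI, where 22.8% of all genes passed, with a median of 0.20 (0.07 with the covariate). Afm, afamin, rose by 0.54 ± 0.14 (SE; limma adjusted p = 0.0155) and Itih4 by 0.41 ± 0.12 (adjusted p = 0.022), while Apoa1 fell by 0.21 (adjusted p = 0.0471). Of 15 measured hepatocyte transcription factors Nr1h4, the bile acid receptor, rose in IPO (0.65 ± 0.20, adjusted p = 0.0247), and Hnf4a stood at 0.43 ± 0.20 (adjusted p = 0.0865). Of the 10 hepatocyte markers Ahsg, Tf, Tat and G6pc1 rose and Apoa1 fell, and their summed log2 level ran from 15.26 to 15.76 in IRI and from 15.58 to 15.80 in IPO. Markers of red cells and platelets (9 of 14 measured) ran from 12.40 to 14.02 in IRI and from 11.92 to 13.63 in IPO, with Hbb and Gp5 lower in IPO, and Kupffer cell markers (11 of 12 measured) from 10.70 to 11.89 and from 10.67 to 12.10, with Cd5l and Cd68 higher. The median summed log2 level of neutrophil markers (11 of 12 measured) was 8.67 in IRI and 8.64 in IPO, with Elane and Itgam lower. Of the 11 markers 9 stood below 0 and 2 above it, S100a8 and S100a9, neither past the threshold. Mean S100a8 was 4.355 in IRI and 5.057 in IPO, and mean S100a9 was 6.328 and 6.741. The median summed log2 level of stellate cell markers (12 of 12) was 10.80 in IRI and 11.08 in IPO, with Pdgfrb and Acta2 higher. That of sinusoidal endothelium (7 of 10) was 9.92 and 10.19, with none past the threshold. With the covariate none of these proteins, transcription factors or markers passed in IPO against IRI, and the medians went from 0.24 to -0.02 for the transcription factors and from 0.24 to 0.04 for the hepatocyte markers. No marker of any list was at 0. The part of these cell types in the differences of the 30 genes was not tested.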

How the data were processed

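Each of 48 rats gave 1 Affymetrix array. What the authors deposited is 1 log2 value per probe set and array, made with RMA in Affymetrix Expression Console, per the submitters' processing notes (version not given in the sources used here); RMA corrects background, normalizes probe quantiles and summarises probes, so differences in total RNA are not kept. Of 29215 probe sets, 15310 had a single symbol in the platform annotation, 323 had several and 13582 had none here; the probe set of highest mean stood for each of 14506 genes. No dim gene was removed, and the labels name no batch. Tests used limma 3.58.1 under R 4.3.3 (lmFit, eBayes, 43 residual degrees of freedom, two-sided, Benjamini-Hochberg over all genes, threshold 0.05), and the pipeline was tested on simulated data. Ratios of the C8 genes were tested by permuting rats (100000 draws, or exact with 8 sham rats), with scipy 1.17.1. Figures used matplotlib 3.10.9. The number of arrays limits the precision.

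The members and lists were chosen with earlier results of these data known. Every gene of the list is named; those past the threshold in a main comparison, and the 6 of smallest p in the F test, have group values, and of other lists at most 4 genes of smallest p are named; the ranges of F13b, Mbl1 and C4bpa, and the names of genes that fell and of cell markers, were added after their values were seen. The fits were repeated on the compared groups alone, with a trended robust variance, with array weights, without the dimmest 33.3% of genes, on the most variable probe set, after quantile normalization or median centring over the genes, with spread in the model, without the 14 narrowest arrays and without each rat. The HNF1 motif was shortened by a letter, which added C4bpa, and a TATA-box search was dropped, after their matches had been seen. Promoters are RefSeq's, GRCr8; no genome or protein sequence was used here.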

Additional observations from a re-analysis of the deposited data

Results flagged for a closer look

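Of 150 gene and group pairs, 16 held a rat whose gap to its nearest neighbour passed Dixon's 95% value; chance flags about 1 in 20 groups. In each the rat was the lowest of its group. Rat 38 of IPC+IPO, the array of lowest spread, accounted for 8: F2 at 11.1, F7 at 7.4, Proc at 9.44, F13b at 9.59, Mbl2 at 9.23, C9 at 10.77, C4bpa at 10.67 and Cfi at 10.26. In IPO, rat 25 had F10 at 10.29 and Plg at 11.31, and rat 30 had Mbl1 at 9.51 and C4bpa at 11.04. In IPC, rat 12 had Mbl2 at 9.77 and C8b at 9.46. In sham, rat 47 had F2 at 11.41 and rat 48 had C8b at 9.71.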

How the results depend on the processing

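Counts of the 30 genes that passed moved with the processing. Apart from the spread covariate, the shares of all genes that passed in these fits are not given beside the counts. The counts therefore cannot be read as particular to the 30 genes. Array weights gave 3 in IRI against sham, 9, 25 and 24 in IPC, IPO and IPC+IPO against IRI, 23, 25 and 25 against sham, and 28 in the F test. Renewed quantile normalization gave 3 (all lower) in IRI against sham, 3 in IPO against IRI, 1, 2 and 1 (all lower) in IPC, IPO and IPC+IPO against sham, and 4 in the F test. The spread covariate gave 3 in IRI against sham, 0 in IPO against IRI, 1, 0 and 0 against sham, and 0 in the F test. Without the 14 arrays of lowest spread the counts were 1 in IPO and 2 in IPC+IPO against IRI, 0, 0 and 0 against sham, and 0 in the F test, with fewer samples in each. With only the groups compared, IPO against sham gave 19 and IPC+IPO against sham 0; the trended robust model gave 1 in the latter. The cause of each other change was not tested. Median centring, the probe set of largest variance and the filter on dim genes kept every count within 1.5 times. Each of the 30 genes had 1 probe set and a mean of at least 8.15. Choice by variance and the dim filter therefore left their values unchanged and could act only through the other genes.

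Leaving out each rat gave 0 to 1 in IRI against sham, 0 to 2, 2 to 19 and 0 to 9 in IPC, IPO and IPC+IPO against IRI, 0 to 10, 4 to 16 and 0 to 12 against sham, and 1 to 18 in the F test; comparisons between treatments and the interaction stayed at 0. Single genes changed sign in IRI against sham without the 14 arrays (Mbl1 -0.12, C8g -0.14, C4bpa -0.10) and, with the covariate, 7 in IPO against IRI (Masp2 -0.02; F2, Proc, F11, Mbl1, C8g and C4bpa), 5 in IRI against sham, 5 each when IPC or IPC+IPO was set against IRI, and 11 (IPC), 11 (IPO) and 14 (IPC+IPO) against sham. The C8a to C8b ratio in IPO and IPC+IPO stayed past the threshold under renewed quantile normalization (0.55 and 0.57), without the 14 arrays (0.63 and 0.77) and without each rat, alternatives chosen after seeing the data; in IPC it was 0.39 after quantile normalization (adjusted permutation p = 0.0561). The C8a to C8g ratio was 0.33 in IPO and 0.26 in IPC+IPO after quantile normalization, and 0.23 and 0.19 without the 14 arrays, none past the threshold. For both ratios the adjustment does not cover their choice after the values were seen.

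No paired analysis was possible because no rat number occurs in more than 1 group.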
